A study of Mus musculus with 10 samples.

Results

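This account covers 10 genes used as markers of monocyte-derived small macrophages and dendritic cells, out of 54532 genes in a table of RNA sequencing values from mouse peritoneal macrophages. The genes, taken by name, were Ccr2, Cx3cr1, Ly6c2, Plac8, Emilin2, Irf4, Irf8, Cd209a, Flt3 and Cd226, and each had 1 row in the table. The macrophages, phagocytes of the cavity that surrounds the abdominal organs, came from aged Trem1-/- mice (3 libraries, replicates 1, 2 and 3), aged wild-type mice (3 libraries, replicates 3, 4 and 6) and young wild-type mice (4 libraries, replicates A, B, C and E). Trem1 encodes an activating receptor of myeloid cells, and the mutant is described in the labels by its genotype alone. The labels give no age in months, strain, treatment or sorting step. Since no label says whether each library came from its own mouse, the p-values describe only how these samples spread, and that spread may be technical. No young Trem1-/- group was analysed here, so the genotypes were compared in aged mice only.

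The peritoneal cavity of the mouse holds a large resident macrophage population that depends on the transcription factor GATA6, and a smaller population that is refilled from blood monocytes and carries MHC class II. Monocytes leave the bone marrow through CCR2, the receptor of the chemokine CCL2, and can mature in the cavity into MHC class II-positive small macrophages, for which IRF4 is required and which carry CD226. Conventional dendritic cells, the specialised antigen-presenting cells, arise from FLT3-dependent precursors, and IRF8 and IRF4 direct their main branches. Several of these genes are also used outside the monocyte lineage. IRF4, IRF8 and PLAC8 are expressed in B cells, and CD226 is an activating receptor of T and NK cells.

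The promoter sequences of 3 of the genes are shown because Plac8 and Irf4 varied together over the libraries while Cd209a followed another pattern. Each sequence is RefSeq's on GRCm38.p6, lies upstream of both the RefSeq start and the annotated 5′ end of the gene, and is written along the gene's strand. Capitals mark the letters GAGGAA or their reverse complement TTCCTC, the core recognised by PU.1, the myeloid and B cell transcription factor encoded by Spi1.
Plac8, chr5:100572246-100572455, minus strand: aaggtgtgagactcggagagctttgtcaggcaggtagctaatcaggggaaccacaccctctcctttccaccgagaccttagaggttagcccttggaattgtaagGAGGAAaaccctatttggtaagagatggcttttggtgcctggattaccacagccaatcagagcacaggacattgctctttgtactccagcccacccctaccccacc
Irf4, chr13:30748983-30749225, plus strand: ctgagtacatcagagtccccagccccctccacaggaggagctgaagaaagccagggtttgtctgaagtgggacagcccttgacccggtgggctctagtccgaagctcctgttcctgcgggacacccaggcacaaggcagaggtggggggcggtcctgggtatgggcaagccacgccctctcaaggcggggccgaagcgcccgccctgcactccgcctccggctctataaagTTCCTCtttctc
Cd209a, chr8:3748985-3749234, minus strand: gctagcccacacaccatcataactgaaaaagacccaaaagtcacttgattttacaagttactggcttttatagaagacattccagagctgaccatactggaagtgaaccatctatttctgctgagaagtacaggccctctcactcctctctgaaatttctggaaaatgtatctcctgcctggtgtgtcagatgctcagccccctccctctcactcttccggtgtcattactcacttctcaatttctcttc
The Plac8 sequence held these letters 1 time in 210 bases, the Irf4 sequence 1 time in 243 bases and the Cd209a sequence 0 times in 250 bases. A further Plac8 match, at -15 to -10 from the RefSeq start, lay past the annotated 5′ end of the gene and is not in the sequence shown. The same 6 letters occurred on either strand in 23.3% of 32851 promoters of 250 bases. Of 8 motifs searched, the longer PU.1 form GAGGAAGT, which contains GAGGAA, was found in the Ly6c2 promoter and in 2.44% of all promoters, and the paired interferon regulatory factor motif, GAAA repeated after any 2 bases, was found in the Emilin2 promoter and in 2.98% of all. The ETS and IRF composite element, GGAA followed after any 2 bases by GAAA and present in 2.3% of promoters, matched in none of the genes. The promoter table held 9 of the 10 genes, and the motif to show was chosen with the matches seen, and a match is a description of letters, not a bound site.

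Libraries held 2663744 to 5603498 recovered reads, and 3 reads corresponded to 1.85 to 3.84 normalized counts. Libraries within a group differed beyond counting noise, with a chi-square of 4.49 to 21.1 per degree of freedom, and each was counted as a sample. Trem1 itself was read in the libraries labelled Trem1-/-, with 23.5, 106 and 13.8 normalized counts in libraries 1, 2 and 3, against 64.0, 15.3 and 27.0 in aged wild-type libraries 3, 4 and 6 (limma adjusted p = 0.914). A deletion that spares part of the transcript would not show in a gene's total, so the genotype is used as labelled. Markers of other cells differed between groups and between libraries. Summed B cell markers lay between 8094 and 16007 normalized counts in aged Trem1-/-, between 17451 and 27738 in aged wild type and between 3446 and 7171 in young wild type. Summed erythroid markers lay between 17.2 and 58.5 in aged Trem1-/-, were 538, 23863 and 476 in aged wild-type libraries 3, 4 and 6 and lay between 9.30 and 760 in young wild type. Of 6 erythroid genes tested, 5 were lower in aged Trem1-/- than in aged wild type and 5 were higher in aged than in young wild type. The count of lower genes became 1 without aged Trem1-/- replicate 1 or 3, and the count of higher genes became 0 without aged wild-type replicate 4 or young wild-type replicate E. Summed mesothelial and fibroblast markers were above all other libraries in every aged wild-type one, with 22.5 to 566 in aged Trem1-/-, 690 to 778 in aged wild type and 12.3 to 544 in young wild type. In aged wild-type library 4 that sum came largely from the keratin genes Krt18 (352) and Krt8 (297). The fibroblast genes Dcn and Col3a1 were at 5.46 each there, against 131 and 92.9 in aged Trem1-/- library 2. Not every marker on this list was therefore highest in aged wild type. Summed mast cell markers lay between 424 and 2007 in aged Trem1-/-, between 972 and 2305 in aged wild type and between 243 and 1444 in young wild type, so these groups overlapped. The part of these markers in the differences between groups was not tested. In these bulk samples, fewer cells of a type and less RNA per cell cannot be told apart.

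The 10 genes differed widely in level. Counts per kilobase of exon, averaged over the 10 libraries, were 1848 for Emilin2, an extracellular matrix glycoprotein, which lay above the macrophage receptor genes Adgre1 (1201) and Csf1r (603) on the same scale. Plac8 followed at 179 and Irf4 at 70.8 counts per kilobase. Irf8 had 51.4, Ccr2 43.7 and Cd209a 40.8 counts per kilobase, close to the 44.6 of the resident macrophage regulator Gata6. Cd226 (7.74), Cx3cr1 (4.11), Flt3 (3.79) and Ly6c2 (2.19) were the 4 lowest. Emilin2 held between 68.9% and 93.3% of the summed counts of the 10 genes in a library, so the sum over the genes is largely a measure of Emilin2.

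The label of the set was only partly borne out by its defining genes. Ly6c2, which defines classical monocytes, had 0 to 11 reads per library, and S100a8, another classical monocyte gene, lay between 0 and 16.4 normalized counts. Xcr1, the marker of type 1 conventional dendritic cells, was at 0 in all aged Trem1-/- libraries and at no more than 8.96 elsewhere, and Siglech, the marker of plasmacytoid dendritic cells, did not exceed 3.27. S100a8, Xcr1 and Siglech were named after their values were seen, and many genes of their lists were higher. A mean of 10 normalized counts was reached by 13 of 16 classical monocyte, 12 of 18 conventional dendritic and 9 of 12 plasmacytoid dendritic cell genes. The monocyte gene F13a1 lay between 286 and 1330, and the dendritic cell gene Wdfy4 between 1461 and 3763. The dendritic cell factor Zbtb46 was at 20.6 to 37.7 normalized counts in aged Trem1-/-, 6.55 to 19.2 in aged wild type and 25.2 to 46.2 in young wild type. The genes are therefore described one by one, and not as the signal of 1 cell type.

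**Figure D1:**
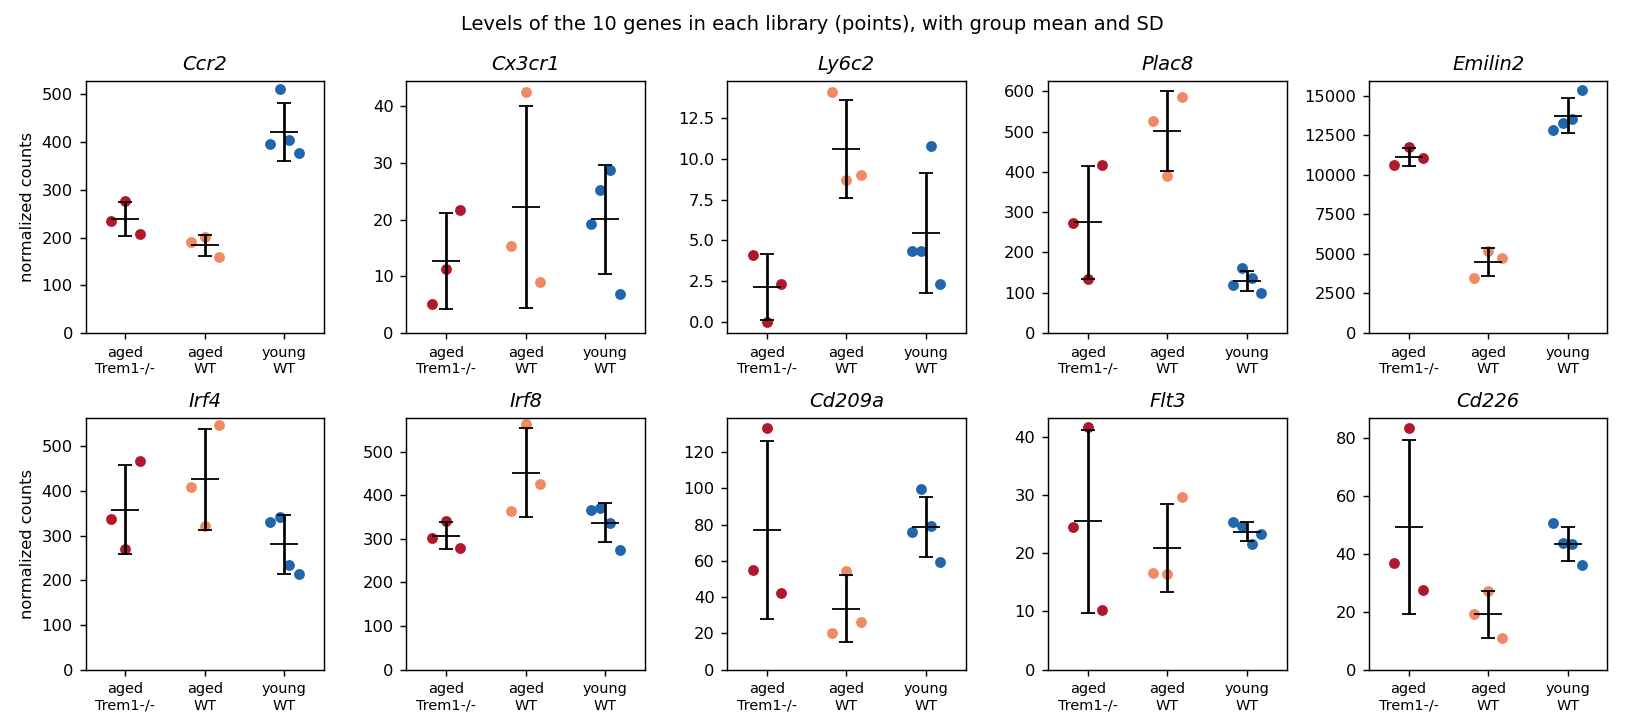
Normalized counts of the 10 genes, 1 panel per gene on linear axes of their own, with a point per library, a horizontal line at the group mean and bars of 1 SD for aged Trem1-/- (n = 3), aged wild type (n = 3) and young wild type (n = 4). Aged wild-type libraries lie lowest for Ccr2 and Emilin2 and highest for Plac8, except that Plac8 in aged Trem1-/- replicate 3 (416) exceeds aged wild-type replicate 4 (391).

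The 10 genes did not move as a group. Between aged and young wild type, 1 of the 9 genes tested was higher (Plac8) and 4 were lower (Ccr2, Cd226, Cd209a and Emilin2) at a limma adjusted p under 0.05. Over all 11506 genes tested, 33.3% were called in that comparison, 14.3% higher and 19% lower. The median log2 fold change was -0.22 for the genes and -0.02 for all genes tested. Between aged Trem1-/- and aged wild type, 2 were higher (Cd226 and Emilin2) and 1 was lower (Irf8), where 18.4% of all genes were called, 11.5% higher and 6.82% lower, and the medians were 0.13 and 0.02. Between aged Trem1-/- and young wild type, 0 were higher and 1 was lower (Ccr2), where 0.921% of all genes were called, 0.591% higher and 0.33% lower, and the medians were -0.13 and 0.01. Without aged Trem1-/- replicate 3, limma called 0 genes in that last comparison. Ly6c2 did not reach the filter of a mean of 10 normalized counts and was compared separately. Aged wild type enters the first and the second comparison, so opposite signs in the pair are not independent of each other.

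**Figure D2:**
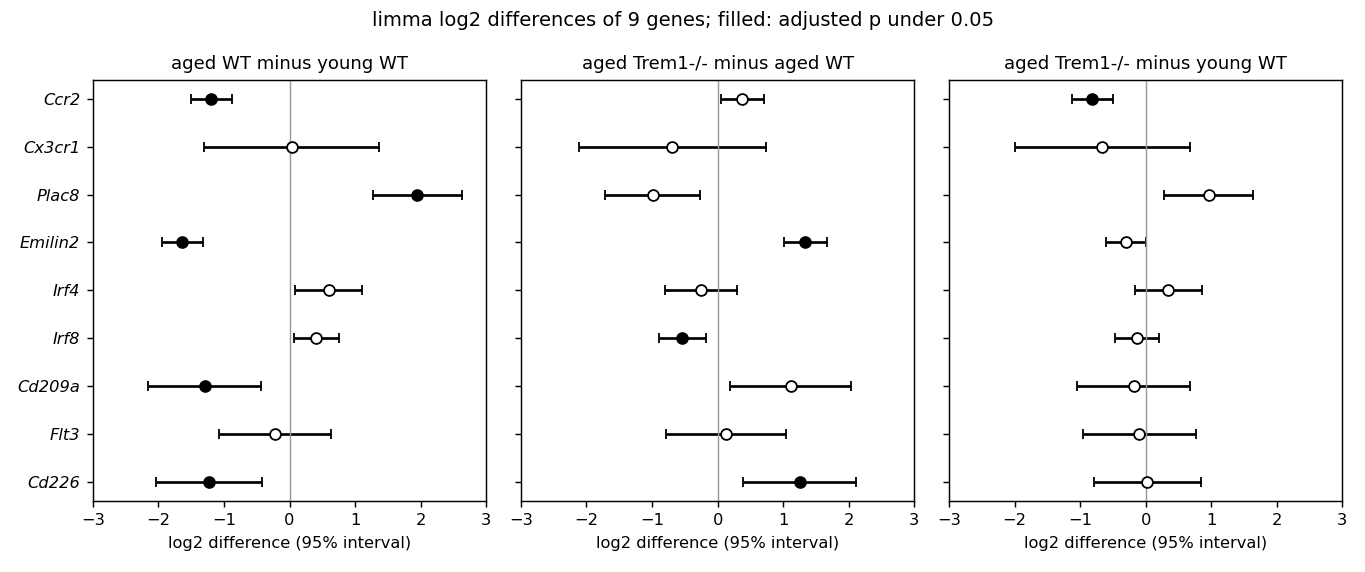
Log2 fold changes (points, filled where the limma adjusted p is under 0.05) with 95% confidence intervals for the 9 tested genes, in 1 panel each for aged minus young wild type, aged Trem1-/- minus aged wild type, and aged Trem1-/- minus young wild type. Emilin2 has the narrowest intervals and lies at -1.63, 1.34 and -0.30, while those of Flt3 and Cx3cr1 are wide and cross 0 in all 3 panels.

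Ccr2, the receptor that draws classical monocytes out of the bone marrow (ENSMUSG00000049103.14, GRCm38 chromosome 9, 124101950 to 124113557, plus strand), was lower in both aged groups than in young wild type. It had 235, 276 and 206 normalized counts in aged Trem1-/- libraries 1, 2 and 3, against 191, 201 and 159 in aged wild-type libraries 3, 4 and 6 and 396, 510.5, 404 and 377 in young wild-type libraries A, B, C and E. All aged libraries lay below all young ones, and all aged Trem1-/- libraries lay above all aged wild-type ones. Means were 239 ± 35.2 in aged Trem1-/-, 184 ± 21.8 in aged wild type and 422 ± 60.4 in young wild type (SD, n = 3, 3 and 4). Ccr2 fell by 1.19 on the log2 scale in aged against young wild type (SE 0.14, limma adjusted p = 0.000263), a call that held without any 1 library. Against the same young libraries it fell by 0.81 in aged Trem1-/- (SE 0.14, limma adjusted p = 0.029). The second call was lost without aged Trem1-/- replicate 1 or 3 or young wild-type replicate A, C or E, with adjusted p between 0.0572 and 0.124. The difference between aged Trem1-/- and aged wild type, 0.38 ± 0.15 (SE), did not pass the test (limma adjusted p = 0.104). Reads of Ccr2 may in small part be shared, since 1.91% of its 50-base stretches occur elsewhere.

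The ligands of the receptors in this set were present at low levels. Ccl2, the ligand of CCR2, had 7.15, 126 and 4.59 normalized counts in aged Trem1-/- libraries 1, 2 and 3, against 65.3, 16.4 and 93.4 in aged wild-type libraries 3, 4 and 6 and 9.59, 7.39, 37.2 and 38.4 in young wild-type libraries A, B, C and E. The groups overlapped, and replicate 2 of aged Trem1-/- was the highest library of all. Cx3cl1, the ligand of CX3CR1, did not exceed 3.20 normalized counts in any library. Flt3l, the ligand of FLT3, was 44.0 ± 4.68 in aged and 22.2 ± 9.46 in young wild type, a log2 fold change of 1.06 ± 0.34 (SE, limma adjusted p = 0.0314). That call was lost without aged wild-type replicate 3 or 6 or young wild-type replicate E, with adjusted p up to 0.0972. Of the 9 ligand and growth factor receptor genes tested, 1 was higher and 3 lower in aged than in young wild type, and 3 were higher and 0 lower in aged Trem1-/- than in aged wild type. Without 1 library the first count ranged from 0 (without aged wild-type replicate 3 or 6, or young wild-type replicate E) to 3 (without aged Trem1-/- replicate 2 or aged wild-type replicate 4), and the third fell to 2 without aged wild-type replicate 3 or 6. Csf1r, the receptor of the macrophage growth factor CSF1, had 3705 ± 5.36 normalized counts in aged Trem1-/-, 2026 ± 614 in aged wild type and 4404 ± 262 in young wild type. It was lower in aged than in young wild type by a log2 fold change of -1.16 ± 0.16 (SE) and higher in aged Trem1-/- than in aged wild type by 0.91 ± 0.17 (SE), with limma adjusted p of 0.00045 and 0.00548.

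Cx3cr1, the fractalkine receptor of patrolling monocytes and of some tissue macrophages (ENSMUSG00000052336.7, chromosome 9, 119901616 to 120069879, minus strand), was low and variable. It had 5.11, 11.2 and 21.8 normalized counts in aged Trem1-/- libraries 1, 2 and 3, against 15.4, 42.6 and 8.98 in aged wild-type libraries 3, 4 and 6 and 19.2, 25.2, 28.8 and 6.97 in young wild-type libraries A, B, C and E. The 3 groups overlapped, and the spread within each was as wide as the distance between them. The log2 fold change was 0.03 in aged against young wild type, with a 95% interval from -1.30 to 1.36 (limma adjusted p = 0.975), and -0.69 in aged Trem1-/- against aged wild type, with an interval from -2.11 to 0.74 (limma adjusted p = 0.492). Exons of Cx3cr1 overlap those of Gm33858 on the other strand, and counting by strand is not given in the sources used here, so its value is uncertain.

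Ly6c2, which encodes the Ly6C surface antigen of classical monocytes (ENSMUSG00000022584.14, chromosome 15, 75108158 to 75111970, minus strand), was near the limit of detection. It had 4, 0 and 2 reads in aged Trem1-/- libraries 1, 2 and 3, against 11, 8 and 10 reads in aged wild-type libraries 3, 4 and 6 and 5, 7, 9 and 2 reads in young wild-type libraries A, B, C and E. In normalized counts this was 4.09, 0 and 2.29 in aged Trem1-/-, against 14.1, 8.73 and 8.98 in aged wild type and 4.36, 4.31, 10.8 and 2.32 in young wild type. All aged Trem1-/- libraries lay below all aged wild-type ones, and the other pairs of groups overlapped. Exact two-sided permutation tests gave p = 0.1 for aged Trem1-/- against aged wild type, the smallest that 3 against 3 libraries allow, 0.114 for aged Trem1-/- against young wild type and 0.171 for aged against young wild type, where 0.0571 is the smallest possible. Of the 50-base stretches of Ly6c2, 14.4% occur in other genes, first in the near-identical Ly6c1, so its reads are uncertain; Ly6c1 itself had 0 reads in 8 of the 10 libraries.

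Plac8, a small cysteine-rich protein of monocytes, neutrophils and B cells (ENSMUSG00000029322.12, chromosome 5, 100553725 to 100572245, minus strand), was higher in aged than in young wild type. It had 274, 135 and 416 normalized counts in aged Trem1-/- libraries 1, 2 and 3, against 527, 391 and 585 in aged wild-type libraries 3, 4 and 6 and 119, 161, 136 and 99.9 in young wild-type libraries A, B, C and E. Aged wild-type libraries all lay above young ones, whereas aged Trem1-/- libraries overlapped both other groups. Means were 275 ± 141 in aged Trem1-/-, 501 ± 99.8 in aged wild type and 129 ± 25.7 in young wild type (SD, n = 3, 3 and 4). The log2 fold change was 1.95 ± 0.31 (SE) in aged against young wild type (limma adjusted p = 0.000923) and stayed past the threshold without any 1 library. Between aged Trem1-/- and aged wild type it was -0.99 ± 0.33 (SE, limma adjusted p = 0.0592). Leaving out aged Trem1-/- replicate 3 or aged wild-type replicate 4 brought that difference past the threshold, with adjusted p between 0.0163 and 0.037, and so did a fit with no filter (limma adjusted p = 0.0353) and DESeq2 (adjusted p = 0.0358). Set against young wild type, aged Trem1-/- differed by 0.96 ± 0.31 (SE, limma adjusted p = 0.176), with an adjusted p of 0.032 when aged Trem1-/- replicate 2 was left out and of 0.0207 with DESeq2.

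Across the 10 libraries, the genes most like Plac8 included the B cell gene Ms4a1. On the log2(normalized count + 1) scale the Pearson r of Plac8 was 0.993 with Mzb1, which helps immunoglobulin assembly, 0.989 with Ms4a1, the gene of the B cell antigen CD20, and 0.989 with Snn. These values describe 10 libraries that share their group differences and carry no test. The summed plasma cell markers, a list that holds Mzb1, did not follow Plac8 as a sum. That sum was 1335 normalized counts in aged Trem1-/- library 2, where Plac8 was 135. Xbp1 gave 1052 of these counts and Mzb1 100, so the sum there is largely a measure of Xbp1. In aged wild-type library 3, where Plac8 was 527, the sum was 870, with 270 from Xbp1 and 394 from Mzb1. Ms4a1 had 915, 504 and 1455 normalized counts in aged Trem1-/- libraries 1, 2 and 3, against 1937, 1333 and 2229 in aged wild-type libraries 3, 4 and 6 and 455, 485, 438 and 257 in young wild-type libraries A, B, C and E. Within aged Trem1-/- the order of the libraries was the same for Ms4a1 as for Plac8, with replicate 3 highest and replicate 2 lowest, and in aged wild type replicate 4 was lowest for both. The part of the B cell and plasma cell markers in the Plac8 difference was not tested.

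**Figure D3:**
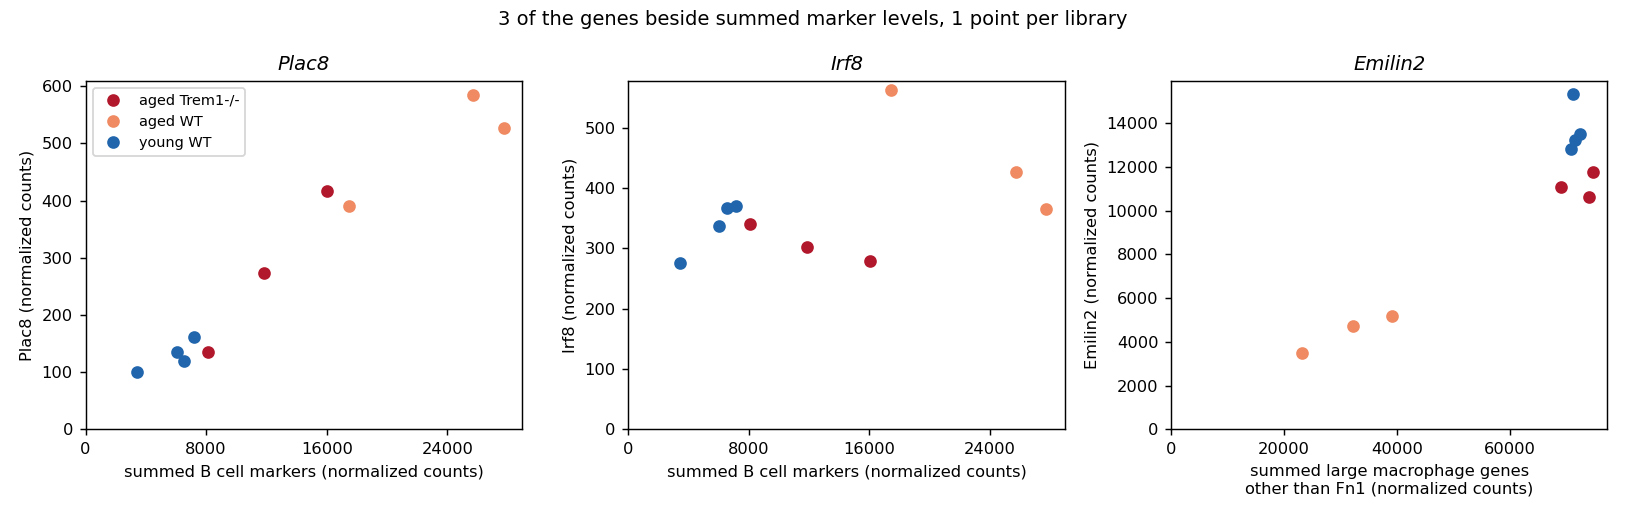
Normalized counts of Plac8 and of Irf8 against the summed B cell markers, and of Emilin2 against the summed large peritoneal macrophage genes other than Fn1, with 1 point per library coloured by group. Plac8 runs along the B cell sum across the libraries, Irf8 is highest (563) in the aged wild-type library with the lowest B cell sum of its group (17451), and Emilin2 separates aged wild type, at 3493 to 5188, from the other groups.

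Emilin2, a secreted glycoprotein of the extracellular matrix (ENSMUSG00000024053.11, chromosome 17, 71252172 to 71311978, minus strand), was lower in aged wild type than in both other groups. It had 10609, 11745 and 11073 normalized counts in aged Trem1-/- libraries 1, 2 and 3, against 3493, 5188 and 4731 in aged wild-type libraries 3, 4 and 6 and 12804, 13247, 13499 and 15331 in young wild-type libraries A, B, C and E. No pair of groups overlapped, with aged wild type lowest, aged Trem1-/- between and young wild type highest. Means were 11143 ± 571 in aged Trem1-/-, 4471 ± 877 in aged wild type and 13720 ± 1111 in young wild type (SD, n = 3, 3 and 4). Emilin2 fell by 1.63 on the log2 scale in aged against young wild type (SE 0.14, limma adjusted p = 0.000126), and was higher in aged Trem1-/- than in aged wild type by 1.34 ± 0.15 (SE, limma adjusted p = 0.00121). Both calls held without any 1 library. The difference between aged Trem1-/- and young wild type was -0.30, with a 95% interval from -0.61 to 0.01 (limma adjusted p = 0.368).

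The genes most like Emilin2 over the libraries were Ank (Pearson r = 0.997), a transporter that exports pyrophosphate, Tln1 (0.995), the integrin adaptor talin, and Man2b2 (0.993), a mannosidase. Gata6, the regulator of resident macrophages, gave the same order of groups, with 317 ± 31.2 normalized counts in aged Trem1-/-, 135 ± 53.7 in aged wild type and 386 ± 33.1 in young wild type. It was -1.59 ± 0.23 (log2, SE) in aged against young wild type and 1.31 ± 0.25 in aged Trem1-/- against aged wild type, with limma adjusted p of 0.000603 and 0.00593. Of 20 large peritoneal macrophage genes, 17 were lower in aged than in young wild type (median -1.21), and 17 were higher in aged Trem1-/- than in aged wild type (median 1.16). Between aged Trem1-/- and young wild type 0 of them were called in either direction (median 0.04). Emilin1, a relative of Emilin2, had 1170 ± 240.3 normalized counts in aged Trem1-/-, 560 ± 328 in aged wild type and 1066 ± 58.5 in young wild type, with limma calls for aged against young wild type (log2 fold change -1.08) and for aged Trem1-/- against aged wild type (1.19). Those calls were lost without aged wild-type replicate 3 or 6, and the second also without aged Trem1-/- replicate 1, with adjusted p up to 0.0559 and 0.0703.

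Irf4, the transcription factor required for MHC class II-positive small macrophages and for plasma cells (ENSMUSG00000021356.10, chromosome 13, 30749226 to 30766976, plus strand), passed the test in none of the 3 comparisons. It had 336, 271 and 467 normalized counts in aged Trem1-/- libraries 1, 2 and 3, against 408, 322 and 547 in aged wild-type libraries 3, 4 and 6 and 330.3, 342, 235 and 214 in young wild-type libraries A, B, C and E. The 3 groups overlapped. The log2 fold change was 0.60 ± 0.23 (SE) in aged against young wild type (limma adjusted p = 0.0693), and its adjusted p was 0.0258 without aged wild-type replicate 4 and 0.039 with DESeq2. It was -0.25 ± 0.25 (limma adjusted p = 0.511) in aged Trem1-/- against aged wild type and 0.34 ± 0.23 (limma adjusted p = 0.555) in aged Trem1-/- against young wild type.

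Irf8, the transcription factor of monocytes and of type 1 conventional and plasmacytoid dendritic cells (ENSMUSG00000041515.10, chromosome 8, 120736358 to 120756694, plus strand), was lower in aged Trem1-/- than in aged wild type. It had 302, 339.7 and 279 normalized counts in aged Trem1-/- libraries 1, 2 and 3, against 365, 563 and 426 in aged wild-type libraries 3, 4 and 6 and 367, 371, 336 and 275 in young wild-type libraries A, B, C and E. All aged Trem1-/- libraries lay below all aged wild-type ones, while young wild type overlapped both. Irf8 fell by 0.54 on the log2 scale (SE 0.17, limma adjusted p = 0.0457) in aged Trem1-/- against aged wild type. Of 10 fits without 1 library, 2 kept that call (without aged wild-type replicate 3 or young wild-type replicate E). The others, without aged Trem1-/- replicate 1, 2 or 3, aged wild-type replicate 4 or 6, or young wild-type replicate A, B or C, gave adjusted p between 0.0567 and 0.121. The call was also lost with no filter (limma adjusted p = 0.0609) and in a fit of the 2 groups alone (limma adjusted p = 0.089). The difference was 0.40 ± 0.16 (SE, limma adjusted p = 0.0664) in aged against young wild type, with an adjusted p of 0.0289 without aged wild-type replicate 3, of 0.0478 with edgeR and of 0.0363 with DESeq2. Aged wild-type replicate 4, the library with the highest Irf8, also held the highest summed erythroid markers, and their part in the difference was not tested. The difference was -0.13 ± 0.16 (limma adjusted p = 0.773) in aged Trem1-/- against young wild type.

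The balance of Irf4 and Irf8 was also read within each library, where it does not depend on scaling. Irf4 made up 52.6%, 44.4% and 62.6% of the sum of both genes in aged Trem1-/- libraries 1, 2 and 3, against 52.8%, 36.4% and 56.2% in aged wild-type libraries 3, 4 and 6 and 47.4%, 48.0%, 41.2% and 43.7% in young wild-type libraries A, B, C and E. The groups overlapped, and the aged libraries were more spread than the young ones. Exact two-sided permutation tests gave p = 0.7 for aged Trem1-/- against aged wild type, 0.171 for aged Trem1-/- against young wild type and 0.571 for aged against young wild type.

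Of 15 other members and partners of the IRF family tested, 3 were higher and 4 lower in aged than in young wild type, where 14.3% of all genes were higher and 19% lower. In aged Trem1-/- against aged wild type 3 were higher and 2 lower, where 11.5% of all genes were higher and 6.82% lower. In so short a list these counts are not set apart from those shares. Prdm1, the repressor that drives plasma cell formation and lies downstream of IRF4 there, had 85.5 ± 18.9 normalized counts in aged Trem1-/-, 114 ± 73.8 in aged wild type and 12.0 ± 3.81 in young wild type. It was 3.01 ± 0.36 (log2, SE) higher in aged than in young wild type (limma adjusted p = 0.000278) and 2.77 ± 0.36 higher in aged Trem1-/- than in young wild type (limma adjusted p = 0.00905), the second with an adjusted p of 0.0541 without aged Trem1-/- replicate 3. Ikzf3, a lymphoid zinc finger factor, had 512 ± 217 normalized counts in aged Trem1-/-, 1301 ± 411 in aged wild type and 341 ± 111 in young wild type. Spi1, which encodes PU.1, was higher in aged Trem1-/- (705 ± 90.8) than in aged wild type (449 ± 61.1), with a log2 fold change of 0.65 ± 0.13 (SE, limma adjusted p = 0.00674). Cebpa, a factor of myeloid differentiation, had 750.2 ± 76.0 normalized counts in aged Trem1-/-, 279 ± 134 in aged wild type and 794 ± 92.9 in young wild type. Its log2 fold change was -1.60 ± 0.23 (SE) in aged against young wild type and 1.52 ± 0.25 in aged Trem1-/- against aged wild type, with limma adjusted p of 0.000569 and 0.00341. The count of genes lower in aged Trem1-/- than in aged wild type was 0 in place of 2 without aged Trem1-/- replicate 1 or 2 or aged wild-type replicate 3 or 6, and the count of higher genes fell to 2 without aged Trem1-/- replicate 1 or 3 or aged wild-type replicate 3.

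Cd209a, a C-type lectin of monocyte-derived dendritic cells in the mouse (ENSMUSG00000031494.7, chromosome 8, 3743397 to 3748984, minus strand), was lower in aged than in young wild type. It had 55.2, 133 and 42.4 normalized counts in aged Trem1-/- libraries 1, 2 and 3, against 20.5, 54.6 and 26.1 in aged wild-type libraries 3, 4 and 6 and 75.8, 99.8, 79.3 and 59.3 in young wild-type libraries A, B, C and E. All aged wild-type libraries lay below all young ones, and the aged Trem1-/- libraries spanned both groups, with replicate 2 highest of all. Cd209a fell by 1.30 on the log2 scale (SE 0.39, limma adjusted p = 0.0251) in aged against young wild type. The call was lost without aged wild-type replicate 3 or 6 or young wild-type replicate B or C, with adjusted p between 0.0527 and 0.107. Aged Trem1-/- differed from aged wild type by 1.11 ± 0.42 (SE, limma adjusted p = 0.0854), and adjusted p lay between 0.0174 and 0.0485 without aged Trem1-/- replicate 3 or aged wild-type replicate 4, or with DESeq2 on all libraries. Against young wild type it was -0.18 ± 0.39 (limma adjusted p = 0.886). Cd209b, a neighbouring lectin of the same family, was likewise lower in aged (8.79 ± 8.54) than in young wild type (43.5 ± 18.7), by -2.41 ± 0.62 (log2, SE, limma adjusted p = 0.0113), with an adjusted p of 0.0553 without aged wild-type replicate 6.

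Flt3, the growth factor receptor of dendritic cell precursors (ENSMUSG00000042817.15, chromosome 5, 147330741 to 147400489, minus strand), showed no difference that passed the test. It had 24.5, 41.7 and 10.3 normalized counts in aged Trem1-/- libraries 1, 2 and 3, against 16.6, 16.4 and 29.6 in aged wild-type libraries 3, 4 and 6 and 25.3, 24.6, 21.6 and 23.2 in young wild-type libraries A, B, C and E. The groups overlapped, and the young libraries lay closest together. The log2 fold change was -0.22 in aged against young wild type, with a 95% interval from -1.08 to 0.63 (limma adjusted p = 0.694), and 0.13 in aged Trem1-/- against aged wild type, from -0.78 to 1.05 (limma adjusted p = 0.853). Against young wild type it was -0.09 in aged Trem1-/-, from -0.95 to 0.76 (limma adjusted p = 0.951).

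Cd226, an activating receptor of the immunoglobulin superfamily that marks small peritoneal macrophages and is also carried by T and NK cells (ENSMUSG00000034028.16, chromosome 18, 89176967 to 89272229, plus strand), was lower in aged wild type than in both other groups. It had 36.8, 83.3 and 27.5 normalized counts in aged Trem1-/- libraries 1, 2 and 3, against 19.2, 27.3 and 10.8 in aged wild-type libraries 3, 4 and 6 and 50.5, 43.7, 43.2 and 36.03 in young wild-type libraries A, B, C and E. All aged wild-type libraries lay below those of both other groups, although aged Trem1-/- replicate 3 (27.5) and aged wild-type replicate 4 (27.3) nearly met. Cd226 fell by 1.22 on the log2 scale (SE 0.37, limma adjusted p = 0.0251) in aged against young wild type. Leaving out aged wild-type replicate 3 or 6, or young wild-type replicate A or C, ended this call, with adjusted p between 0.0512 and 0.111. It was higher in aged Trem1-/- than in aged wild type by 1.25 ± 0.40 (SE, limma adjusted p = 0.0476). That second call was kept without aged Trem1-/- replicate 3 or aged wild-type replicate 4 only, and the fits without each other library gave adjusted p between 0.0565 and 0.163. TMM scaling gave 0.0522 and a fit of the 2 groups alone 0.122. Without aged Trem1-/- replicate 2 the difference was 0.80. Against young wild type it was 0.03 ± 0.37 (limma adjusted p = 0.983). Summed T and NK cell markers were highest in aged wild type, at 570 to 911 normalized counts. They were 97.1 to 246 in aged Trem1-/- and 129 to 178 in young wild type. Their part in the Cd226 difference was not tested.

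Among the 9 tested genes, pairs that were alike over the 10 libraries ran across the assigned roles. Pearson r on the log2 scale was 0.915 between Cd226 and Cd209a, 0.84 between Irf4 and Plac8, 0.794 between Ccr2 and Emilin2, 0.783 between Cd209a and Emilin2 and 0.747 between Cd226 and Emilin2. These are descriptions over libraries that share groups. Among all tested genes, Cd209a was most like Ccr1, a chemokine receptor of monocytes (r = 0.961), Gm46224 (0.953) and Ssbp4 (0.942). Cd226 was most like Dlgap4 (0.954), Sptlc2 (0.954) and Rora (0.95), and Ccr2 like Rps6kc1 (0.974), Fam129a (0.967) and Upf1 (0.959). Irf4 was most like Zbtb25 (0.959), Alpk2 (0.952) and Bmi1 (0.94), and Irf8 like Hrh2 (0.938), the haemoglobin gene Hbb-bs (0.938) and Gm16675 (0.931). For the low genes Flt3 (Rab6b 0.902, Ttll4 0.87 and Egfr 0.845) and Cx3cr1 (Gid8 0.898, Ift80 0.882 and Uck1 0.879) the values were lower, and in counts this sparse they carry little weight.

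Since resident macrophage genes were lower in aged wild type as a group, the 10 genes were also read per 1000 counts of the large peritoneal macrophage genes in the same library. Fn1, the fibronectin gene, made up 65.9% to 77.7% of the sum over the 20 listed genes, so the 19 others are used here, a choice made after seeing the data. On this scale Emilin2 had 154 ± 9.07 in aged Trem1-/-, 143 ± 9.65 in aged wild type and 192 ± 15.9 in young wild type, so its groups lay much closer together than on the count scale. Cd226 had 0.67 ± 0.388 in aged Trem1-/-, 0.62 ± 0.256 in aged wild type and 0.606 ± 0.0847 in young wild type. Cd209a had 1.05 ± 0.638 in aged Trem1-/-, 1.03 ± 0.318 in aged wild type and 1.10 ± 0.229 in young wild type. For these 2 genes the group means differed by less than the spread of the aged groups. Ccr2 had 3.29 ± 0.368 in aged Trem1-/-, 6.10 ± 1.86 in aged wild type and 5.89 ± 0.835 in young wild type, so relative to these genes its mean was lowest in aged Trem1-/-, and the means of the 2 wild-type groups differed by less than their spread. Irf8 had 4.22 ± 0.281 in aged Trem1-/-, 14.5 ± 1.28 in aged wild type and 4.71 ± 0.617 in young wild type. Irf4 had 4.97 ± 1.61 in aged Trem1-/-, 14.3 ± 5.26 in aged wild type and 3.92 ± 0.927 in young wild type. Plac8 had 3.84 ± 2.12 in aged Trem1-/-, 17.0 ± 6.49 in aged wild type and 1.80 ± 0.352 in young wild type. The low genes Flt3 (0.346 in aged Trem1-/-, 0.686 in aged wild type and 0.331 in young wild type), Cx3cr1 (0.178 in aged Trem1-/-, 0.677 in aged wild type and 0.28 in young wild type) and Ly6c2 (0.0295 in aged Trem1-/-, 0.37 in aged wild type and 0.0758 in young wild type) also had their highest mean in aged wild type. In all, 7 of the 10 means were highest in aged wild type, where the genes in the denominator were themselves lower.

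**Figure D4:**
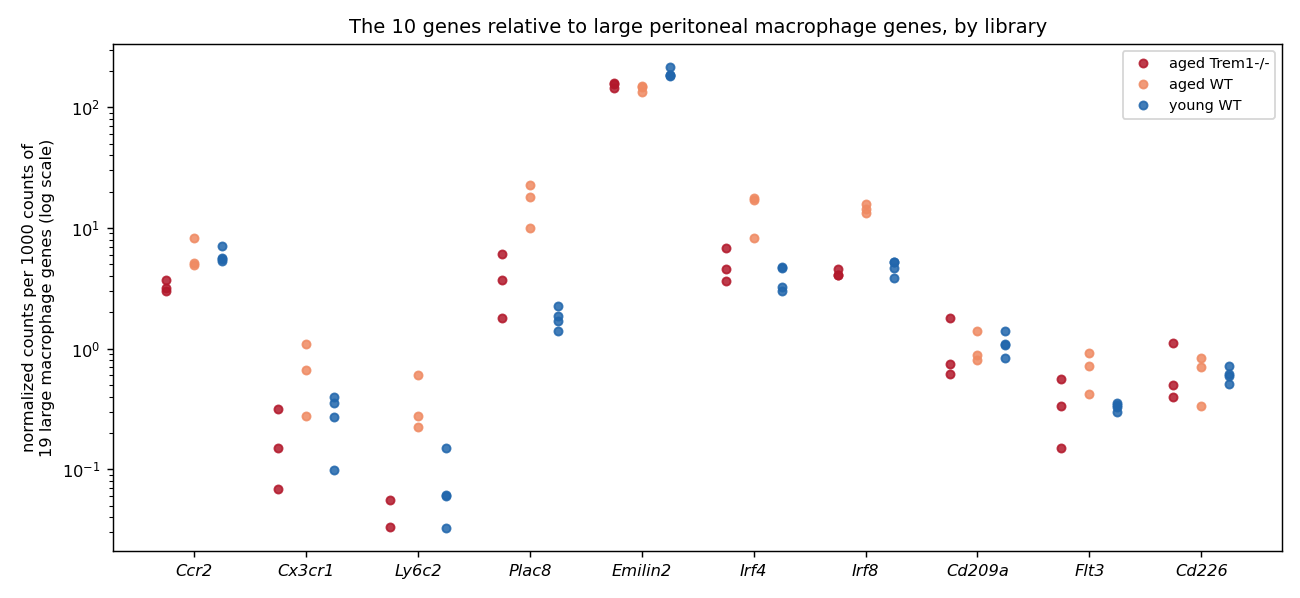
Counts of each gene per 1000 counts of the large peritoneal macrophage genes other than Fn1, 1 point per library on a log axis, by group. Irf8 lies at 4.03 to 4.54 in aged Trem1-/-, 13.2 to 15.8 in aged wild type and 3.87 to 5.17 in young wild type, while Cd226 and Cd209a overlap in all groups. Ly6c2 in aged Trem1-/- replicate 2 was 0 and cannot be drawn on this axis.

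Of 12 other genes of small macrophages and of antigen presentation tested, 6 were higher and 5 lower in aged than in young wild type, with a median log2 fold change of 0.35. The higher genes included Ciita, the master regulator of MHC class II, with 589 ± 113 normalized counts in aged and 252 ± 60.7 in young wild type (1.24 ± 0.20, limma adjusted p = 0.000952), and H2-Aa, an MHC class II chain (1.08 ± 0.18, limma adjusted p = 0.00101), both also expressed by B cells. The lower genes included the macrophage and dendritic lectins Mgl2, with 14.2 ± 4.90 in aged and 86.2 ± 11.0 in young wild type (-2.56 ± 0.57, limma adjusted p = 0.0053), and Clec10a, with 67.8 ± 32.0 in aged and 154 ± 10.7 in young wild type (-1.27 ± 0.27, limma adjusted p = 0.00455). These 4 calls held without any 1 library. Aged Trem1-/- against aged wild type gave 2 higher and 0 lower genes, the higher being Clec10a (134 ± 38.8 against 67.8 ± 32.0, limma adjusted p = 0.0315) and the integrin gene Itgax (44.0 ± 20.1 against 20.8 ± 6.43, limma adjusted p = 0.0462). The call of Clec10a was lost without aged Trem1-/- replicate 1 or 2 or aged wild-type replicate 3 or 6, with adjusted p up to 0.112. That of Itgax was kept in 2 of 10 fits without 1 library, those without aged Trem1-/- replicate 3 or aged wild-type replicate 6, and adjusted p reached 0.164 in the others. Without aged Trem1-/- replicate 2 or aged wild-type replicate 3 the count of higher genes was 0, without aged Trem1-/- replicate 3 it was 4, and without aged wild-type replicate 4 there were 5 lower genes. Aged Trem1-/- against young wild type gave 0 genes called in either direction. For this list and those below, the shares over all genes were 14.3% higher and 19% lower in aged against young wild type. They were 11.5% higher and 6.82% lower in aged Trem1-/- against aged wild type.

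Among 13 classical monocyte genes tested, 2 were higher and 7 lower in aged than in young wild type, with a median of -0.83. The lower ones were led by Lyz2, the lysozyme of myeloid cells, with 22405 ± 5009 normalized counts in aged and 58048 ± 2943 in young wild type (-1.40 ± 0.18, limma adjusted p = 0.000364), and by Fn1, both of which resident macrophages also express. Aged Trem1-/- against aged wild type gave 4 higher genes, with a median of 0.75. The count of 7 became 4 without aged wild-type replicate 3, and the count of 4 became 2 without aged wild-type replicate 3 and 7 without aged wild-type replicate 4.

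Of 10 patrolling monocyte genes, 5 were higher and 3 lower in aged than in young wild type (median 0.95), and 2 were higher and 3 lower in aged Trem1-/- than in aged wild type (median -0.40). Itgal, the leukocyte integrin chain CD11a, had 234 ± 44.5 normalized counts in aged Trem1-/-, 562 ± 223 in aged wild type and 174 ± 42.1 in young wild type. Adgre4, an adhesion receptor of monocytes and macrophages, took the opposite course with 299 ± 37.5 in aged Trem1-/-, 128 ± 31.1 in aged wild type and 294 ± 37.6 in young wild type. Both genes passed the limma test in both comparisons without any 1 library, with adjusted p up to 0.0439.

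Of 12 conventional dendritic cell genes, 5 were higher and 3 lower in aged than in young wild type (median -0.06), and 1 was higher and 2 lower in aged Trem1-/- than in aged wild type (median -0.16). In a list of 12 genes, the counts for aged Trem1-/- against aged wild type are not set apart from the shares over all genes. Ccr7, the lymph node homing receptor of dendritic cells and lymphocytes, had 150.3 ± 37.0 normalized counts in aged and 47.8 ± 16.9 in young wild type (1.67 ± 0.34, limma adjusted p = 0.00318). Zbtb46, a factor of conventional dendritic cells, was lower, with 14.6 ± 6.98 in aged and 34.1 ± 10.4 in young wild type (-1.25 ± 0.38, limma adjusted p = 0.0245), and the call was lost without aged wild-type replicate 4 or young wild-type replicate A or B, with adjusted p up to 0.0746. The count of 3 lower genes became 1 without young wild-type replicate A or B. For aged Trem1-/- against aged wild type the count of 2 lower genes became 1 without aged Trem1-/- replicate 2 or aged wild-type replicate 3.

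Of 9 plasmacytoid dendritic cell genes, 7 were higher and 2 lower in aged than in young wild type (median 1.95), and 2 were higher and 6 lower in aged Trem1-/- than in aged wild type (median -1.17). The higher genes in aged wild type were led by Spib (632 ± 213 in aged, 139 ± 37.5 in young wild type) and Tlr9 (308 ± 99.8 in aged, 75.5 ± 27.4 in young wild type), which B cells also express. The 2 lower genes were Tlr7 (150 ± 28.8 in aged, 259 ± 22.9 in young wild type) and Bst2 (41.0 ± 9.04 in aged, 84.1 ± 15.2 in young wild type). Tlr7 (234 ± 5.24) and Bst2 (75.6 ± 5.96) were also the 2 higher genes in aged Trem1-/-, and their calls in both comparisons held without any 1 library. The defining gene Siglech stayed at or below 3.27 normalized counts, as given above. The count of 6 became 0 without aged Trem1-/- replicate 2. The part of B cells in the differences of this list was not tested.

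Relatives of the genes by family were mostly below the filter, with 6 of 20 tested. Ly6a, the Sca-1 antigen of the Ly6 family carried by lymphocytes, had 137 ± 37.7 normalized counts in aged Trem1-/-, 347 ± 139 in aged wild type and 67.6 ± 18.5 in young wild type. It was 2.32 ± 0.29 (log2, SE) higher in aged than in young wild type (limma adjusted p = 0.000308) and lower in aged Trem1-/- than in aged wild type (log2 fold change -1.29 ± 0.31, SE, limma adjusted p = 0.016). The second call was lost without aged Trem1-/- replicate 1 or 2 or aged wild-type replicate 3, with adjusted p up to 0.0595.

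Lymphocyte markers moved beside these lists. Of 18 B cell markers tested, 17 were higher and 0 lower in aged than in young wild type (median 2.14), and 0 were higher and 9 lower in aged Trem1-/- than in aged wild type (median -1.16). Against young wild type, 3 of them were higher and 0 lower in aged Trem1-/- (median 0.99). Of 13 T and NK cell markers tested, 12 were higher in aged than in young wild type (median 2.15) and 9 were lower in aged Trem1-/- than in aged wild type (median -2.05). Leaving out aged Trem1-/- replicate 2 or aged wild-type replicate 6 reduced the 9 B cell markers to 3, leaving out young wild-type replicate E raised them to 16, and leaving out aged wild-type replicate 3 reduced the 9 T and NK cell markers to 5. The 3 B cell markers became 0 without aged Trem1-/- replicate 1 or 3, aged wild-type replicate 6 or young wild-type replicate C, and 5 without aged wild-type replicate 4. Their part in the differences of Plac8, Irf4, Irf8, Ciita, Spib and the like was not tested.

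The library with the highest Ccr2, Cd209a, Cd226, Flt3, Irf8 and Emilin2 of its group was in each case aged Trem1-/- replicate 2. It also held the highest Trem1 (106 normalized counts), summed mast cell markers (2007) and summed mesothelial and fibroblast markers (566) of that group, and the lowest Plac8, Irf4 and summed B cell markers (8094). Without it Emilin2 stayed past the threshold between aged Trem1-/- and aged wild type, and Cd226 and Irf8 did not. The Cd226 and Irf8 calls were each kept in only 2 of 10 fits without 1 library, so their loss is not particular to this library.

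The authors' deposited table gives their own comparison of aged with young wild type. In the authors' deposited table the log2 fold change was -1.21 for Ccr2 (adjusted p = 8.31e-11), 1.95 for Plac8 (3.12e-08) and -1.62 for Emilin2 (6.6e-28). It was -1.20 for Cd226 (0.0331) and -1.22 for Cd209a (0.0268) in the authors' deposited table, so the same 5 genes were past 0.05 there. Irf4 (0.0714), Irf8 (0.0723), Flt3 (0.846), Cx3cr1 (0.914) and Ly6c2 (0.385) were not, by the adjusted p of the authors' deposited table.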

How the data were processed

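RNA sequencing covered 10 libraries of mouse peritoneal macrophages. The build GRCm38 is listed in the submitters' processing notes together with DESeq2 1.20.0, featureCounts 1.5.0-p3, STAR and fastp; the order of steps and the annotation release: not given in the sources used here. The authors deposited normalized counts per library (a signal value), their mean, and for aged against young wild type a log2 fold change, the Wald score and p-values before and after adjustment. Dividing a library's values by the value of 1 read gave whole reads for 100% of them (tolerance 1e-06). Symbols were matched to GENCODE for 53825 genes (98.7%).

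The members and gene lists were chosen with earlier results of these data known. Values were tested with limma-trend on log2(normalized count + 1), with limma 3.58.1 under R 4.3.3, in 1 fit of 10 libraries and 3 groups, over genes with a mean of at least 10, calling genes at a Benjamini-Hochberg adjusted p under 0.05 per comparison. Fold changes on this scale understate those of genes with few counts. Ly6c2 and the Irf4 share were compared by exact permutation. Lists are given as counts and medians, without a test. Named were the 10 genes, up to 2 genes per list, direction and comparison with the lowest adjusted p, fixed context genes, and the 3 genes most correlated with each member; S100a8, Siglech, Xcr1, Ccl2 and Cx3cl1 were named after their values were seen, and some results that the rule would name are not reported here. Alternatives were pseudocounts of 0.5 and 5, no filter, a filter at 50, edgeR 4.0.16 and DESeq2 1.42.0 on recovered reads, TMM scaling, fits of 2 groups, each library left out, and shares of the large macrophage genes. The fit was tested on simulated data. The 3-read floor covers counting error alone, because reads lacking molecular identifiers can be copies.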

Additional observations from a re-analysis of the deposited data

How the results depend on the processing

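The directions of Ccr2, Plac8, Cd226, Cd209a and Emilin2 in aged against young wild type, and of Emilin2, Cd226 and Irf8 in aged Trem1-/- against aged wild type, were kept in every fit of normalized counts or reads and every fit that left out 1 library. No paired analysis was possible because no label pairs libraries of different groups. Called members, higher in aged than in young wild type, numbered 2 with edgeR and 3 with DESeq2 against 1, and 1 to 2 without 1 library. Lower ones numbered 2 to 4 without 1 library. Of all 11506 genes, edgeR called 1821 and DESeq2 1815 higher in that comparison, against 1647. Between aged Trem1-/- and aged wild type, higher members numbered 1 with a filter at 50, with TMM scaling and in the fit of 2 groups, and 1 to 3 without 1 library. Of all genes, 1299 of 7528 were higher with a filter at 50 and 1184 of 11506 with TMM scaling, against 1327. Lower members numbered 2 with DESeq2, 0 in the fit of 2 groups and 0 to 1 without 1 library. DESeq2 called 1029 of all 11506 genes lower there, against 785. Between aged Trem1-/- and young wild type, higher members numbered 1 with DESeq2 and 0 to 1 without 1 library, and lower ones 0 to 1. Over all genes, aged Trem1-/- against aged wild type gave 726 higher and 445 lower in the fit of 2 groups, and 762 to 1782 higher and 318 to 1020 lower without 1 library, against 1327 and 785, with the lower counts without aged Trem1-/- replicate 1 or 2 or aged wild-type replicate 3 or 6. Aged Trem1-/- against young wild type gave 161 and 102 with no filter, 28 and 8 with a filter at 50, 253 and 195 with DESeq2 and 154 and 145 in the fit of 2 groups, against 68 and 38; without 1 library it gave 0 to 157 and 0 to 106, the 0 being without aged Trem1-/- replicate 3. Aged against young wild type gave 1170 to 1757 higher and 1593 to 2414 lower without 1 library.

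Read as a share of the large macrophage genes, signs turned. In aged against young wild type Ccr2 was 0.37, Cd226 0.29, Cd209a 0.24 and Flt3 1.28 (log2), and without Fn1 Ccr2 was 0.0203 and Flt3 0.94. For aged Trem1-/- against aged wild type, Ccr2 was -0.93, Cd226 -0.010, Cd209a -0.17 and Flt3 -1.13, and without Fn1 Ccr2 was -0.85, Cd209a -0.094 and Flt3 -1.06. For aged Trem1-/- against young wild type, Cd209a was 0.0735, Flt3 0.15 and Irf8 0.13. The share divides by genes that were themselves lower in aged wild type. Flt3 in the last comparison was 0.13 with edgeR and 0.13 with DESeq2. Leaving out 1 library turned signs of uncalled values, with Cx3cr1 in aged against young wild type from -0.56 to 0.50, Flt3 in aged Trem1-/- against aged wild type from -0.31 to 0.65, and in aged Trem1-/- against young wild type Cd226 from -0.43 to 0.36, Cd209a from -0.66 to 0.15 and Flt3 from -0.54 to 0.42. The difference in Irf4 share ran from -0.473 to 9.46 percentage points in aged against young wild type and from -1.32 to 9.15 in aged Trem1-/- against aged wild type. For these the cause was not tested. Ly6c2, Cx3cr1 and Flt3 rest on few reads, which limits what could be detected.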
